A study of Mus musculus with 91 samples.

Results

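The transcripts described here mark interneurons of the nucleus accumbens, a region of the ventral striatum that takes part in reward and motivation. They are 7 genes of the 14355 in the deposited count table, chosen by their Ensembl identifiers. Cholinergic interneurons were represented by Chat (ENSMUSG00000021919) and Slc5a7 (ENSMUSG00000023945). Interneurons that make somatostatin, neuropeptide Y and nitric oxide were represented by Sst (ENSMUSG00000004366), Npy (ENSMUSG00000029819) and Nos1 (ENSMUSG00000029361). Pvalb (ENSMUSG00000005716) marks fast-spiking parvalbumin interneurons, and Lhx6 (ENSMUSG00000026890) encodes a transcription factor of interneurons born in the medial ganglionic eminence. All 7 were present in the table, whose genes the authors had already filtered on log CPM.

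The study asked how ribosome-associated mRNA varies over the day in D1- and D2-expressing neurons. D1 libraries came from Drd1-Cre mice and D2 libraries from A2a-Cre mice, each crossed to RiboTag mice, in which Cre switches on a ribosomal protein with a hemagglutinin tag (HA-Rpl22). All mice carried a Cre driver and the RiboTag allele, were males or females over 10 weeks old, and lived in a 12:12 light-dark cycle. Punches of 2 mice were pooled per sample, and ribosomes were pulled down with an anti-HA antibody at ZT 2, 6, 10, 14, 18 or 22, ZT being the time in hours since lights on. The 91 libraries comprised 45 of D1 (23 female, 22 male) and 46 of D2 (23 of each sex), in 24 groups of 3 or 4. Each title carries a letter, A to D, with a single D1 library of letter E. The sources used here do not say what the letters stand for. D1 and D2 libraries stem from separate Cre lines, so line and cell type cannot be told apart. In a pull-down from bulk tissue, fewer cells of a type and less RNA per cell cannot be told apart either.

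Most neurons of the nucleus accumbens are GABAergic spiny projection neurons, and those with D1 and those with D2 receptors form largely separate populations. Interneurons are a small minority that act within the region. Cholinergic interneurons release acetylcholine: Chat encodes the enzyme that makes it, and Slc5a7 the transporter that takes choline back up. The GABAergic interneurons marked by Sst, Npy and Nos1 release the peptides somatostatin and neuropeptide Y and the gas nitric oxide. Parvalbumin interneurons inhibit spiny neurons at short latency, and parvalbumin itself is a calcium buffer. Lhx6 acts in the specification of somatostatin and parvalbumin interneurons.

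Total counts ranged from 6872165 to 24665262 per library, with a median of 14047068. Of the D1 male libraries, 3 stood apart (B at ZT10, B at ZT22 and D at ZT18). They had 205 to 789 genes at 0 counts, against at most 3 genes in the other 88. Results are given with all libraries, and some values are also given without these 3. Levels are given as CPM, each count relative to the TMM-adjusted total of its library. They are not divided by transcript length, so levels are compared between libraries and not between genes. The table pairs no identifier with a gene name, so the defining markers of D1 and D2 neurons, glia and other cells could not be looked up, and the labelled cell types were not checked. Whether the interneuron transcripts came from tagged cells or from RNA carried along in the pull-down was not tested.

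Sst, Npy, Nos1, Pvalb and Lhx6 were higher in D1 than in D2 pull-downs, and the cholinergic markers Chat and Slc5a7 did not pass the test. Sst was 2.76-fold higher in D1 libraries, Npy 2.25-fold, Pvalb 3.42-fold, Nos1 1.34-fold and Lhx6 1.48-fold. The test passed for 5 of the 7 genes, each higher in D1, whereas 19.3% of all 14355 genes passed in either direction and 9.44% as higher in D1. The median difference, D1 minus D2 on the log2 scale, was 0.56 over the 7 genes and -0.01 over all genes. A gene passed when its adjusted p was under 0.05 in edgeR's quasi-likelihood test.

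Sst, the precursor of the inhibitory peptide somatostatin, ranged from 32.4 to 105.1 CPM in D1 libraries, with a median of 51.9. In D2 libraries it ranged from 13.3 to 28.2 CPM, with a median of 19.4. The cell types did not overlap: all 45 D1 libraries were above all 46 D2 libraries. The log2 difference was 1.46 ± 0.08 (SE; edgeR adjusted p = 1.3e-28), and the D1 mean was higher in all 12 pairs of groups of the same sex and time. Among those groups, Sst means ran from 41.3 ± 10.9 CPM (SD, n = 4, females at ZT6) to 66.4 ± 20.7 CPM (SD, n = 3, males at ZT18) in D1. In D2 they ran from 16.9 ± 3.27 CPM (SD, n = 4, females at ZT14) to 22.2 ± 2.73 CPM (SD, n = 4, males at ZT22). The coefficient of variation of Sst was 32.7% over D1 and 21.3% over D2 libraries.

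Npy, the precursor of neuropeptide Y, ranged from 4.70 to 19.2 CPM in D1 libraries, with a median of 9.22, and from 2.52 to 6.93 CPM in D2 libraries, with a median of 4.30. The ranges met: 38 of the 45 D1 libraries lay above the highest D2 library. The lowest D1 library of Npy was among the 3 that stand apart, and without those 3 the lowest held 5.65 CPM. The log2 difference was 1.17 ± 0.09 (SE; edgeR adjusted p = 1.79e-20). Nos1, which encodes the neuronal nitric oxide synthase, ranged from 52.3 to 90.5 CPM in D1 libraries, with a median of 65.7, and from 37.3 to 58.6 CPM in D2 libraries, with a median of 49.5. Here too 38 of the 45 D1 libraries were above every D2 library. The log2 difference of Nos1 was 0.43 ± 0.04 (SE; edgeR adjusted p = 3.74e-16).

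Pvalb, the calcium buffer of fast-spiking interneurons, ranged from 0.636 to 4.91 CPM in D1 libraries, with a median of 2.15. In D2 libraries it ranged from 0.0903 to 1.80 CPM, with a median of 0.655. It was the gene with the fewest reads, 9 to 69 counts per D1 library and 1 to 22 per D2 library, so single libraries are imprecise. Still, 32 of the 45 D1 libraries lay above the highest D2 library, and the log2 difference was 1.77 ± 0.15 (SE; edgeR adjusted p = 2.02e-18). Only 0.146% of genes in the table had a lower mean CPM over all libraries, so Pvalb lies near the lower edge of the authors' filter. Whether its D2 level alone would have kept it in the table was not tested. Its difference between cell types is to be read with that limit. Lhx6, the transcription factor, ranged from 2.92 to 22.9 CPM in D1 libraries, with a median of 12.6, and from 4.00 to 14.5 CPM in D2 libraries, with a median of 8.47. These ranges overlapped broadly, with 12 of the 45 D1 libraries above the highest D2 library. The lowest and the highest D1 library of Lhx6 were both among the 3 that stand apart. Without those 3, D1 libraries ranged from 8.85 to 21.45 CPM (n = 42), which still overlaps the D2 range. The log2 difference was 0.56 ± 0.09 (SE; edgeR adjusted p = 2.61e-07). Npy, Nos1, Pvalb and Lhx6 had, like Sst, a higher D1 mean in 12 of 12 pairs of groups.

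Chat, the acetylcholine-making enzyme, ranged from 0.437 to 5.82 CPM in D1 libraries, with a median of 2.99, and from 0.963 to 5.06 CPM in D2 libraries, with a median of 2.84. The log2 difference was -0.04 (95% interval -0.28 to 0.20; edgeR adjusted p = 0.837), and the D1 mean was higher in 4 of 12 pairs of groups. Slc5a7, the choline transporter, ranged from 3.47 to 15.0 CPM in D1 libraries, with a median of 7.30, and from 2.72 to 11.0 CPM in D2 libraries, with a median of 7.37. Its log2 difference was 0.12 (95% interval -0.07 to 0.30; edgeR adjusted p = 0.379), with a higher D1 mean in 7 of 12 pairs. These intervals hold ratios of D1 over D2 from 0.822 to 1.15 for Chat and from 0.954 to 1.23 for Slc5a7. A shift of that size in either cholinergic gene would not have been told from 0. Without the 3 libraries that stand apart, the log2 difference was 0.04 for Chat and 0.06 for Slc5a7. The lowest Chat level in D1 was then 1.12 CPM and the highest Slc5a7 level 10.8 CPM.

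**Figure D1:**
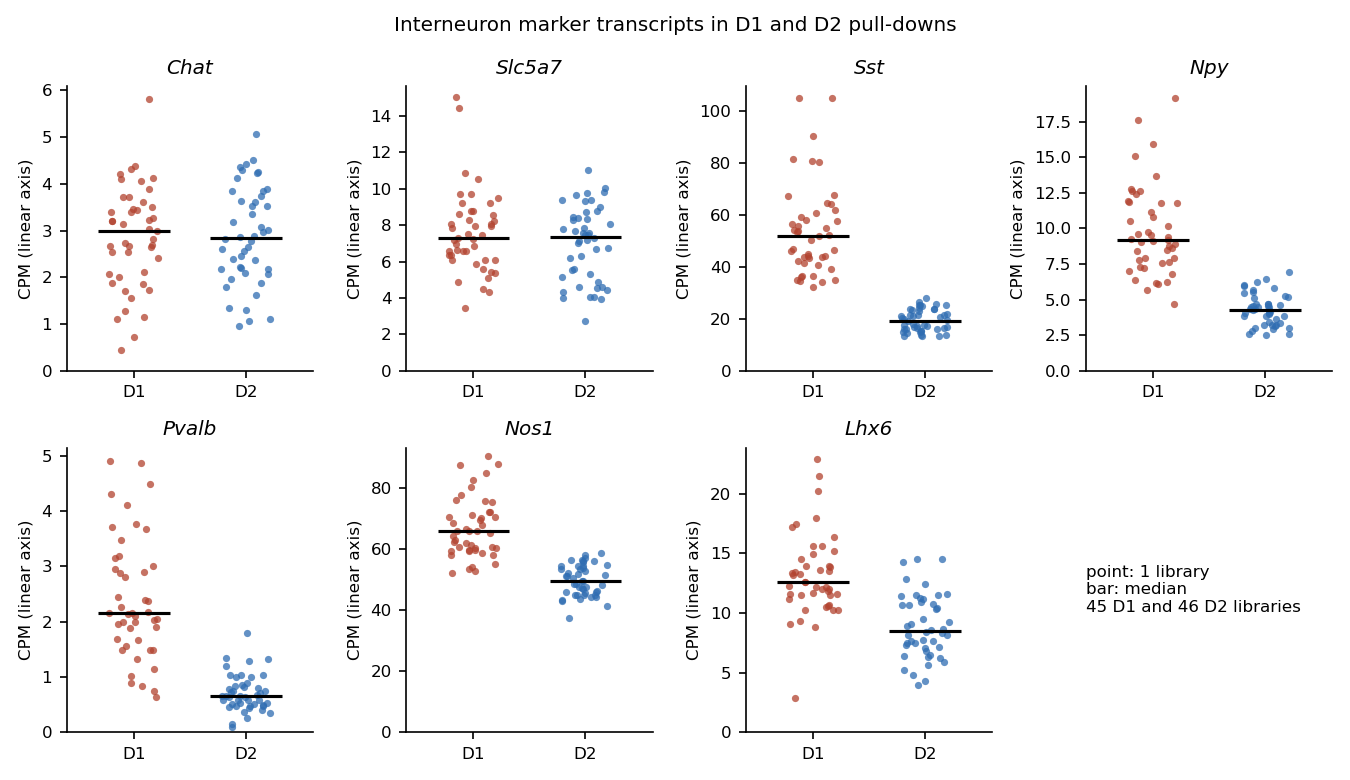
Levels of the 7 interneuron markers in D1 and D2 pull-downs, in CPM on linear axes that start at 0 and differ between genes. Each point is 1 library (45 D1, 46 D2) and each bar the median. Sst separates the cell types with no overlap, while the ranges of Chat and Slc5a7 overlap broadly.

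The scaling of a library largely cancels in the ratio of 2 of its genes, so the ratios were compared between cell types as well. It does not cancel fully, because the log2 CPM used here adds a prior count of 2, scaled to the library. This addition weighs most on Pvalb, with 1 to 22 counts per D2 library, and its part in the ratios was not tested. The comparison of ratios was added after the differences above were seen, and covered all 21 pairs of genes with a two-sided permutation test. The difference in ratio passed for 18 of the 21 pairs, and for the same 18 when cell type labels were permuted within letters. Of these, 16 had 1 sign in all 4 letters. The exceptions were Slc5a7 to Nos1 and Npy to Pvalb, whose log2 ratio differed by -0.41 over all libraries and by 0.13 in letter C. The difference in ratio passed for each of the 10 pairs of a cholinergic marker with one of the other 5 genes, every one shifted towards the other gene in D1. Apart from the scaling, a difference in log2 ratio is about the gap between the differences of its 2 genes given above. The shared direction of the 10 pairs therefore restates those differences and is no separate support for them. The log2 ratio of Chat to Sst averaged -4.24 ± 0.98 (SD, n = 45) in D1 and -2.77 ± 0.77 (SD, n = 46) in D2, a difference of -1.47 (permutation p = 1e-05, the smallest the resampling can give; adjusted p = 1.75e-05). The smallest of these shifts was between Slc5a7 and Nos1, -0.30 (permutation p = 0.00903, adjusted p = 0.0105). Within letters it was 0.07 in A, -0.03 in B, -0.53 in C and -0.60 in D, so it rested on letters C and D. Among markers of one interneuron type, the log2 ratio of Sst to Nos1 was higher in D1 by 1.01 and that of Sst to Npy by 0.29 (adjusted permutation p = 1.75e-05 and 3e-05). The 3 pairs that did not pass were Chat with Slc5a7 (adjusted permutation p = 0.19), Sst with Pvalb (0.345) and Nos1 with Lhx6 (0.19). Of these, Sst with Pvalb is the pair most exposed to the prior count. Without the 3 libraries that stand apart the difference was -1.33 for Chat to Sst and -0.35 for Slc5a7 to Nos1, and -0.007 for Chat to Slc5a7, against -0.17 with them.

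Promoters are shown for Sst and Npy, which moved together from library to library in D1 but did not pass in D2 (as given further on), for Pvalb, which had the largest difference between cell types, and for Chat, which had none that passed. Each window covers 250 bases before to 50 after a start site of the RefSeq annotation, build GRCm38.p6, and is written 5′ to 3′ along the gene. The Sst window is chr16:23890795-23891094 on the minus strand, the Npy window chr6:49822460-49822759 on the plus strand, the Pvalb window chr15:78206351-78206650 on the minus strand and the Chat window chr14:32465860-32466159 on the minus strand. Capitals mark TGACG, the core of the cAMP response element, in either orientation (CGTCA on the other strand).
Sst: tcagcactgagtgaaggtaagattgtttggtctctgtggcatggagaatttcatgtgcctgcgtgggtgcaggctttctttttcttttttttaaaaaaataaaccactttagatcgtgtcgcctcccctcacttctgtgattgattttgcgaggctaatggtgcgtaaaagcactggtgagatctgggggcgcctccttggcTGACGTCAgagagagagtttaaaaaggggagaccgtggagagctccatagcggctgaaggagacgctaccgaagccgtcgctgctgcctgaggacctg
Npy: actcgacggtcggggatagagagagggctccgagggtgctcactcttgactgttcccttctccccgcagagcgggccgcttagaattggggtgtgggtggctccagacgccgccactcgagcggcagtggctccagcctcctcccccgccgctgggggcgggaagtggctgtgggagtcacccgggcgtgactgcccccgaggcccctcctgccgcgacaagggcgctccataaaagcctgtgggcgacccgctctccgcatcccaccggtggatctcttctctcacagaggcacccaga
Pvalb: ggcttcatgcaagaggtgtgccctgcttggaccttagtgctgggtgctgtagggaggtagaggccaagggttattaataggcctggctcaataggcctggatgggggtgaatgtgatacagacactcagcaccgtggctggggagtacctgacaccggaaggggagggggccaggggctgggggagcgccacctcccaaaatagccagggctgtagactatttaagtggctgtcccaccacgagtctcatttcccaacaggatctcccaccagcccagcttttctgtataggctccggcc
Chat: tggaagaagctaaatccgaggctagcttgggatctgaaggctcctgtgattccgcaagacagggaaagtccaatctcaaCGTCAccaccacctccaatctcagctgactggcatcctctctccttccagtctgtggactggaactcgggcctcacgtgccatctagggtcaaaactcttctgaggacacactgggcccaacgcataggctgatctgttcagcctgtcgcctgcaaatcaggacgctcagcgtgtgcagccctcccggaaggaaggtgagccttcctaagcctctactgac
In Sst a pair of cores overlaps to form the palindrome TGACGTCA, the cAMP response element for which this promoter is known. Its cores begin 48 and 45 bases before the start. This palindrome is in 1.79% of the 32851 promoter windows of the annotation, and in 1 of the 10 windows found for the 7 genes. At least 1 core TGACG is in 20.8% of all windows, and among the 10 windows in those of Sst, Chat (171 bases before the start) and Nos1 (130 bases before the start). The E-box CACGTG, searched on both strands, is in 7.15% of all windows and here in that of Chat. The motifs were chosen with the values known, and a match describes the letters of a window and no binding. All 7 genes were matched to RefSeq by symbol.

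Sst, Npy, Pvalb, Nos1 and Lhx6 were higher in D1 on average in each of letters A to D. When each letter was fitted alone, which was chosen after the data were seen, the log2 difference of Sst lay between 1.31 and 1.63, that of Npy between 1.07 and 1.16, and that of Nos1 between 0.37 and 0.47. Pvalb differed by 2.09 in letter A, 2.20 in B, 1.08 in C and 1.56 in D. For Lhx6 the difference was 1.03 in letter A (edgeR adjusted p = 2.37e-07), 0.51 in B (0.0387), 0.45 in D (0.00225) and 0.17 in C, where it did not pass (0.207). Slc5a7 split by letter: it was higher in D1 by 0.50 in A (edgeR adjusted p = 0.000971) and by 0.77 in B (0.00322), and its difference was -0.15 in C (0.298) and -0.16 in D (0.255). Without the library of letter D that stands apart, the difference of Slc5a7 in D was -0.25 (edgeR adjusted p = 0.0449). Chat was lower in D1 in letter B by 0.80 on the log2 scale (edgeR adjusted p = 0.0217), where 2 of the 9 D1 libraries are among those that stand apart. With those 2, Chat averaged 2.42 ± 1.22 CPM in D1 letter B (SD, n = 9), and without them 2.95 ± 0.72 CPM (SD, n = 7), against 2.43 ± 0.88 CPM in D2 letter B (SD, n = 10). Slc5a7 averaged 8.04 ± 2.82 CPM in D1 letter B with the same 2 libraries (SD, n = 9). Without them it averaged 7.20 ± 1.72 CPM (SD, n = 7), against 5.67 ± 1.66 CPM in D2 letter B (SD, n = 10). The fit to letter B could not be made without those 2 libraries, so its differences of Chat and Slc5a7 include them. The difference of Chat was 0.30 in A, -0.15 in C and -0.20 in D, none of which passed. Whether the differences themselves differ between letters was not tested.

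**Figure D2:**
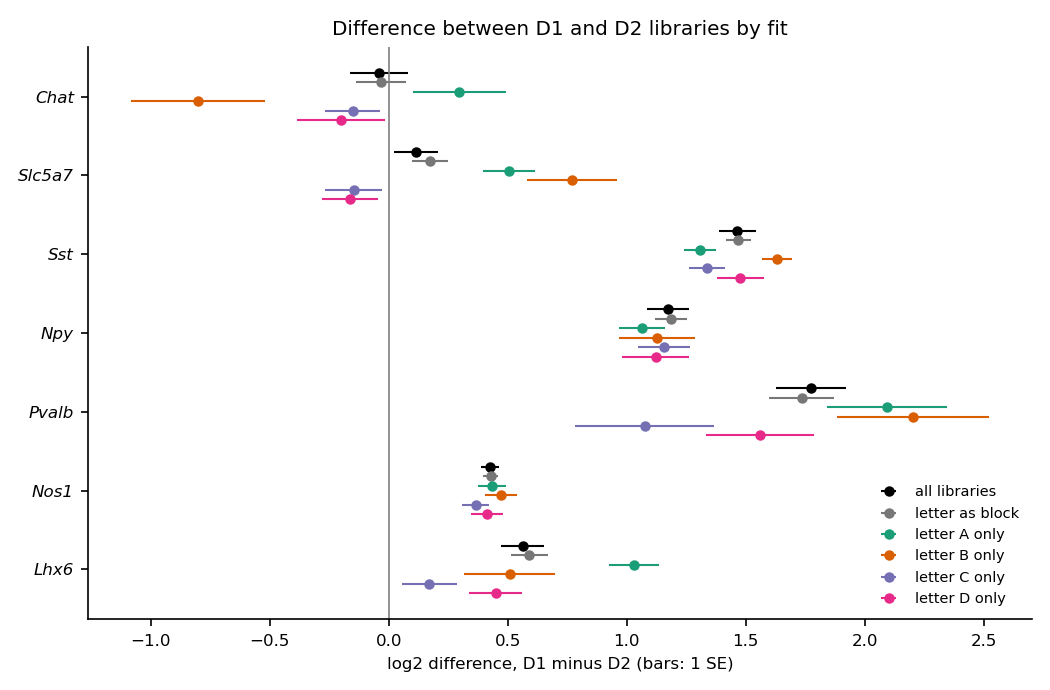
Difference between D1 and D2 libraries for each gene, as D1 minus D2 on the log2 scale with bars of 1 SE, from the fit to all libraries, the fit with the letter as a block, and fits to letters A to D alone. Sst, Npy and Nos1 keep close values across letters, while Slc5a7 lies above 0 in letters A and B and below 0 in C and D.

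Levels differed by letter within each cell type, for these genes about as often as for all genes. In D2, Chat, Slc5a7 and Lhx6 split from Sst, Npy and Nos1 in direction. In D2 libraries Chat averaged 1.96 ± 0.66 CPM in letter A (SD, n = 12), 2.43 ± 0.88 in B (SD, n = 10), 3.75 ± 0.84 in C (SD, n = 12) and 3.34 ± 0.69 in D (SD, n = 12). Slc5a7 averaged 5.11, 5.67, 8.81 and 8.20 CPM in the same order, and Lhx6 averaged 6.46, 8.34, 10.9 and 9.80 CPM. Sst ran the other way, with 24.1, 21.2, 16.4 and 16.8 CPM, as did Npy with 5.40, 4.64, 3.35 and 3.93 CPM and Nos1 with 53.9, 50.6, 45.8 and 49.0 CPM. Thus cholinergic markers and Lhx6 were lower, and Sst, Npy and Nos1 higher, in letters A and B than in C and D. The edgeR test over letters passed for 6 of the 7 genes in D2, all but Pvalb, a share near the 85.6% of all genes that passed. The highest adjusted p among the 6 was that of Nos1 (0.00025), and Pvalb had an adjusted p of 0.508. Depth moved with the letters: D2 libraries averaged 19727033 counts in A, 16241681 in B, 11336342 in C and 10904585 in D. Its part in the levels was not tested.

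In D1 libraries the test over letters passed for 4 of the 7 genes, a share near the 58.4% of all genes that passed. They were Sst (edgeR adjusted p = 6.15e-06), Npy (0.000558), Nos1 (0.000733) and Pvalb (0.013). Sst averaged 60.4 ± 11.6 CPM in letter A (SD, n = 12), 70.0 ± 23.8 in B (SD, n = 9), 41.3 ± 5.75 in C (SD, n = 12) and 47.1 ± 14.1 in D (SD, n = 11). Npy averaged 11.3, 12.1, 7.45 and 8.78 CPM and Nos1 73.1, 72.6, 58.6 and 64.9 CPM, again higher in A and B. Pvalb averaged 2.90, 2.87, 1.74 and 2.02 CPM. Chat (adjusted p = 0.0774), Slc5a7 (0.781) and Lhx6 (0.874) did not pass. Without letter C the call was kept for Sst alone, and those of Npy (adjusted p = 0.0746), Pvalb (0.119) and Nos1 (0.128) were lost. The mean D1 depth was 15452263 counts in A, 14848957 in B, 14369976 in C and 11833152 in D.

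**Figure D3:**
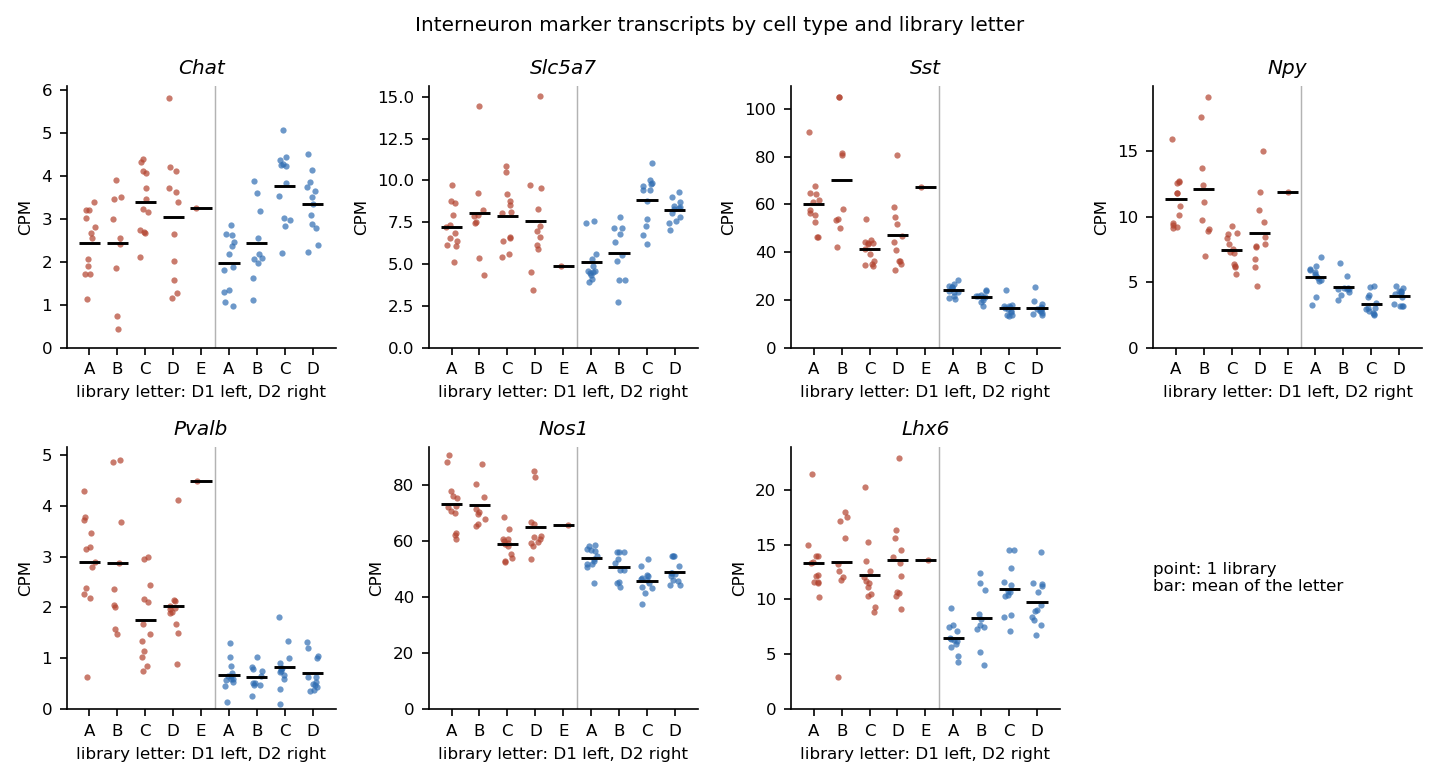
Level of each gene by library letter, in CPM on linear axes from 0, with D1 libraries on the left and D2 libraries on the right of each panel. Points are libraries and bars the mean of a letter; letter E has 1 library. In D2, Chat, Slc5a7 and Lhx6 are lower in A and B than in C and D, and Sst, Npy and Nos1 are higher.

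None of the interneuron markers passed the test for a daily rhythm, which fits a cosine with a period of 24 h. In D1, 0 of 7 genes passed, where 0.495% of all genes did, and in D2 0 of 7, where 2.94% did. No gene of the 7 reached an unadjusted p of 0.05 in edgeR or in DESeq2 in either cell type, and DESeq2 also called 0. These fits leave out the letter, although letters pair the D2 libraries. Alternative fits by edgeR or DESeq2 included the letter as a block. Over them the lowest adjusted p was 0.309 in D1 (Lhx6) and 0.244 in D2 (Sst), so none passed. The difference in rhythm between D1 and D2 was called for 0 of 7 genes by both tools, with 0 below an unadjusted p of 0.05, where 0.0139% of all genes passed. Fitted amplitudes, which are log2 distances between mean and peak, had a median of 0.15 over the 7 genes in D1 and 0.09 over all genes. In D2 the medians were 0.08 and 0.07. The largest amplitudes in D1 were those of Lhx6, 0.17 ± 0.08 (SE; unadjusted p = 0.122, edgeR adjusted p = 0.482), and Slc5a7, 0.16 ± 0.08 (SE; edgeR adjusted p = 0.522), with fitted peaks at ZT 20.9 and 20.7. In D2 the amplitude was largest for Pvalb, 0.14 ± 0.14 (SE; edgeR adjusted p = 1).

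The medians by time give the size of the movement that was seen. Sst in D1 had its lowest median at ZT2 (44.9 CPM, range 36.1 to 105.1) and its highest at ZT22 (55.3 CPM, range 34.8 to 80.8). In D2 the Sst medians ran from 17.1 CPM at ZT6 to 20.9 CPM at ZT22. Npy in D1 ran from 8.53 CPM at ZT18 to 11.2 CPM at ZT14, and Nos1 in D1 from 59.2 CPM at ZT18 to 73.9 CPM at ZT2. Lhx6 in D1 ran from 10.7 CPM at ZT18 to 15.3 CPM at ZT22. Pvalb in D1 had the largest ratio of highest to lowest median, 1.74, between 1.73 CPM at ZT18 (range 1.02 to 2.80) and 3.00 CPM at ZT14 (range 2.15 to 4.11). Chat medians in D1 ran from 2.24 CPM at ZT10 to 3.20 CPM at ZT2 and in D2 from 2.19 CPM at ZT10 to 2.92 CPM at ZT14. Slc5a7 medians ran from 6.88 to 8.36 CPM in D1 and from 6.83 to 8.38 CPM in D2. When the 6 times were ordered by their median, the ranges of all 5 neighbouring pairs overlapped for each gene in both cell types. Neighbours in that order have the closest medians, so their overlap says little about a rhythm. For Sst, Npy, Pvalb, Nos1 and Lhx6 the D1 median was above the D2 median at 6 of 6 times, with a ratio of medians of 2.48 to 2.95 for Sst.

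**Figure D4:**
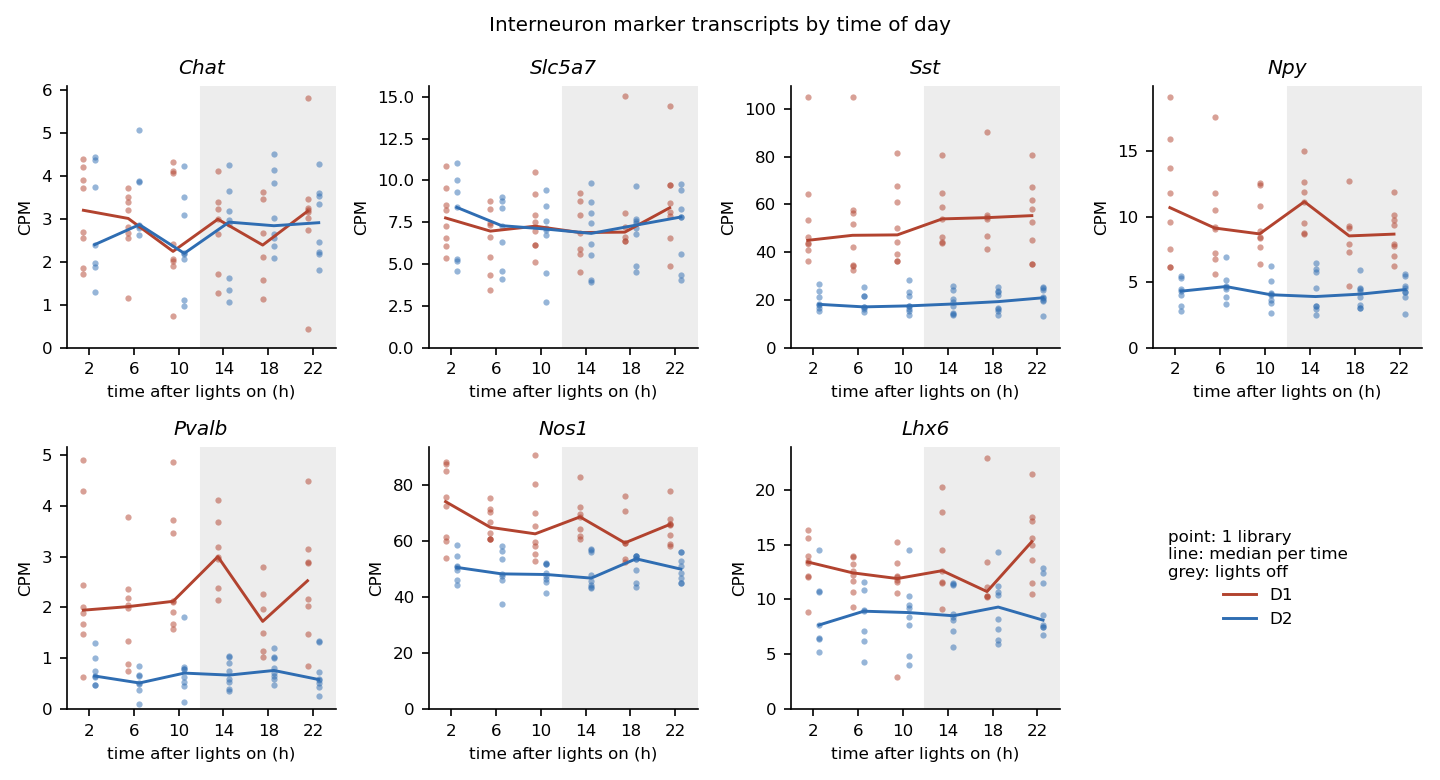
Level of each gene by time after lights on, in CPM on linear axes from 0, with D1 in red and D2 in blue. Points are libraries, lines join the medians of 6 to 8 libraries, and grey marks lights off. The D1 and D2 lines of Sst stay apart at all 6 times, and those of Chat and Slc5a7 cross.

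Between the sexes no interneuron marker passed the test in D1 (0 of 7, where 0.0418% of all genes passed) or in D2 (0 of 7, where 0.216% passed). In D1 an unadjusted p under 0.05 was found for 2 genes in edgeR, Chat and Sst, and for the same 2 in DESeq2, which gave no adjusted p for 6 of the 7. Sst was at 60.0 ± 21.6 CPM in D1 males (SD, n = 22) and 48.6 ± 10.7 CPM in D1 females (SD, n = 23), a log2 difference of 0.30 ± 0.12 (SE; unadjusted p = 0.0173, edgeR adjusted p = 0.249). Male libraries reached 105.1 CPM and female libraries 67.3 CPM, while the lowest were 34.7 and 32.4 CPM. Chat was at 2.43 ± 1.28 CPM in D1 males (SD, n = 22) and 3.26 ± 0.70 CPM in D1 females (SD, n = 23), a log2 difference of -0.45 ± 0.18 (SE; unadjusted p = 0.0143, edgeR adjusted p = 0.24). The 3 libraries that stand apart are D1 males and held 0.437 to 1.57 CPM of Chat, and without them its difference was -0.31 ± 0.15 (SE; edgeR adjusted p = 0.688). In D2, 1 gene of the 7 had an unadjusted p under 0.05 in both tools and DESeq2 called 0. It was Nos1, at 51.4 ± 4.49 CPM in males (SD, n = 23) and 48.2 ± 5.18 CPM in females (SD, n = 23), a log2 difference of 0.09 ± 0.04 (SE; unadjusted p = 0.0441, edgeR adjusted p = 0.926). That fit leaves out the letter. Over 8 alternative fits by edgeR or DESeq2, the lowest adjusted p of Nos1 was 0.0789, so none passed.

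Some markers of one interneuron type moved together from library to library after the means of group and letter were removed: Sst with Npy and Npy with Nos1 in D1, and Chat with Slc5a7 in D2. Sst with Nos1, of the same type, passed in neither. All other pairs that passed joined genes not listed for the same type. Among them was the strongest correlation, that of Chat with Lhx6 in D2 (r = 0.630). The deviations of log2 CPM were correlated for 21 pairs of genes in 44 D1 and 46 D2 libraries (letter E left out), and p-values were adjusted over the 42 tests. Removing means leaves fewer independent values than libraries, so the permutation p-values are too small to some degree. The Pearson correlation passed for 10 of 42 tests, 7 in D1 and 3 in D2, of which 7 were positive and 3 negative. The share that passes among pairs of other genes was not computed, so this count is not a trait of the markers. For Chat, Slc5a7 ranked only 2897th of the 14354 other genes by r. Genes of a pair share the library and its scaling.

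In D1, Npy and Nos1 had r = 0.591 (permutation p = 6e-05, adjusted p = 0.00063) and rho = 0.550 (permutation p = 0.00023, adjusted p = 0.00252). Without the 2 libraries farthest from the median, r was 0.495, and within letters it was 0.766 in A, 0.784 in B, 0.158 in C and 0.732 in D. Sst and Npy had r = 0.560 (permutation p = 9e-05, adjusted p = 0.000756) and rho = 0.557 (permutation p = 9e-05, adjusted p = 0.00189), with r = 0.515 without the 2 farthest and 0.732, 0.511, 0.401 and 0.621 within letters A to D. In both pairs r was lowest in letter C. In D2, Sst and Npy had r = 0.294 (permutation p = 0.0472, adjusted p = 0.152) and rho = 0.203 (permutation p = 0.176), and Npy and Nos1 had r = 0.168 (permutation p = 0.262) and rho = 0.193 (permutation p = 0.198). Sst and Nos1 had r = 0.328 in D1 (permutation p = 0.0297, adjusted p = 0.113) and rho = 0.301 (permutation p = 0.0469), with 0.649, 0.382, -0.243 and 0.322 within letters A to D. In D2 their r was -0.037 (permutation p = 0.806) and rho -0.097 (permutation p = 0.518). Sst also correlated with Pvalb in D1, with r = 0.436 (permutation p = 0.00271, adjusted p = 0.0142), rho = 0.391 (permutation p = 0.00925) and r = 0.352 without the 2 farthest. Within letters that r was 0.769 in A, 0.274 in B, 0.391 in C and 0.169 in D.

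In D2, Chat and Slc5a7, the cholinergic markers, had r = 0.483 (permutation p = 0.0006, adjusted p = 0.0036) and rho = 0.411 (permutation p = 0.00522, adjusted p = 0.0244), with r = 0.339 without the 2 farthest. Within letters r was 0.273 in A, 0.741 in B, 0.693 in C and -0.116 in D, so it did not hold in D. Both cholinergic genes also correlated with Lhx6 in D2. For Chat and Lhx6 r was 0.630 (permutation p = 1e-05, the smallest the resampling can give; adjusted p = 0.00042) and rho 0.524 (permutation p = 0.00024), with r = 0.536 without the 2 farthest and 0.352, 0.899, 0.615 and 0.446 within letters. For Slc5a7 and Lhx6 r was 0.583 (permutation p = 3e-05, adjusted p = 0.00056) and rho 0.479 (permutation p = 0.00089), with r = 0.475 without the 2 farthest and 0.757, 0.655, 0.559 and 0.111 within letters. In D1, Chat and Lhx6 had r = 0.397 (permutation p = 0.0109, adjusted p = 0.0458) and rho = 0.450 (permutation p = 0.00246), with r = 0.576 without the 2 farthest and 0.370, 0.422, 0.755 and 0.106 within letters. Chat and Slc5a7 in D1 had r = 0.212 (permutation p = 0.166, adjusted p = 0.367) and rho = 0.255 (permutation p = 0.0948). Without the 3 libraries that stand apart this r was 0.465 (adjusted permutation p = 0.0112). Whether correlations differ between D1 and D2 was not tested.

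Of the 10 pairs of a cholinergic marker with one of the other 5 genes, 3 passed as negative in D1 and 1, Chat with Lhx6, as positive. Slc5a7 and Nos1 had r = -0.581 (permutation p = 4e-05, adjusted p = 0.00056) and rho = -0.612 (permutation p = 1e-05), with r = -0.551 without the 2 farthest and -0.686, -0.493, -0.690 and -0.491 within letters A to D. Slc5a7 and Npy had r = -0.539 (permutation p = 0.00022, adjusted p = 0.00154) and rho = -0.514 (permutation p = 0.00054), with r = -0.453 without the 2 farthest and -0.559, -0.345, -0.346 and -0.760 within letters. Chat and Sst had r = -0.411 (permutation p = 0.00548, adjusted p = 0.0256) and rho = -0.486 (permutation p = 0.00096), with r = -0.348 without the 2 farthest and -0.512, -0.253, -0.253 and -0.674 within letters. These 3 negative relations kept their sign in each letter. Without the 3 libraries that stand apart, r was -0.542, -0.412 and -0.387 in the same order (adjusted permutation p = 0.00244, 0.0302 and 0.0485). In D2 none of the same pairs passed: r was -0.07 for Slc5a7 and Nos1 (permutation p = 0.647), 0.053 for Slc5a7 and Npy (permutation p = 0.725) and -0.155 for Chat and Sst (permutation p = 0.303), with rho of -0.108, -0.033 and -0.130 (permutation p = 0.476, 0.827 and 0.385).

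**Figure D5:**
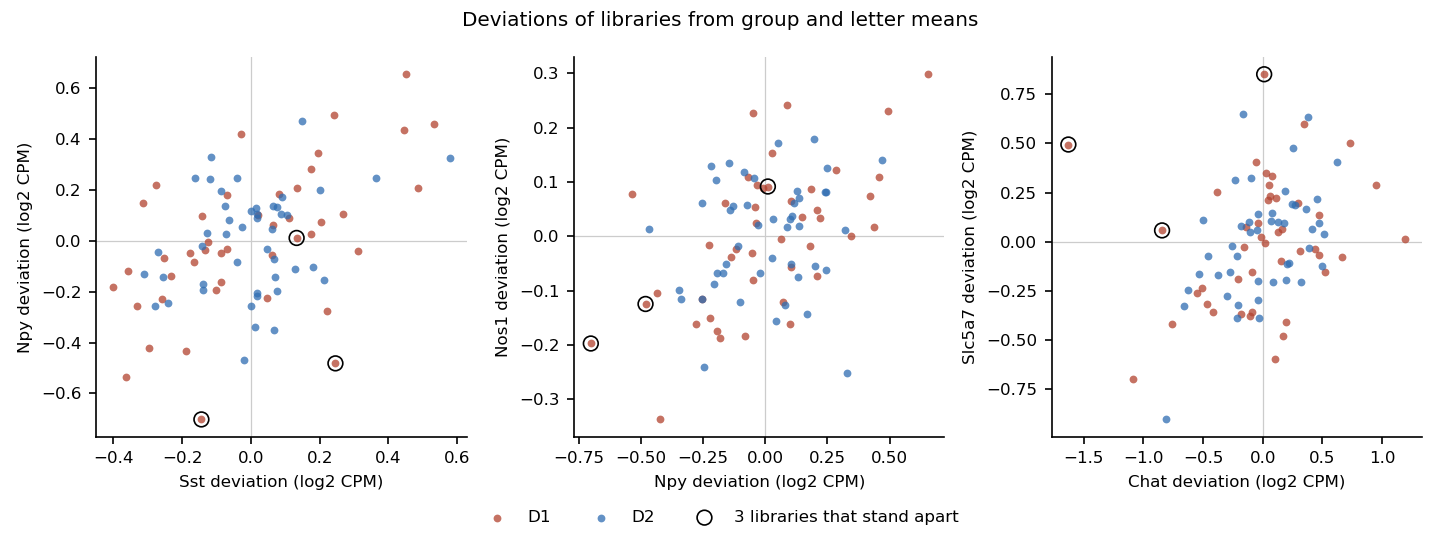
Deviations of libraries from the means of their group and letter, in log2 CPM, for Sst against Npy, Npy against Nos1 and Chat against Slc5a7, with D1 in red and D2 in blue. Each point is 1 library, and rings mark the 3 libraries that stand apart. The D1 points rise together in the first and second panels (r = 0.560 and 0.591), and the rings lie off the trend in the third.

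Over all genes, the deviations of 90 libraries show how closely markers of one type ranked. Ordered by Pearson r with Sst, Npy was 45th of the 14354 other genes (r = 0.471), Pvalb 263rd (r = 0.367) and Nos1 1674th (r = 0.200). Ordered by r with Npy, Sst was 47th and Nos1 98th (r = 0.435). For Pvalb, Sst was 69th. For Chat, Lhx6 was 844th (r = 0.483) and Slc5a7, the other cholinergic gene, 2897th (r = 0.313). The genes most like Chat and Lhx6 were ENSMUSG00000039835 (r = 0.736 with Chat) and ENSMUSG00000075592 (r = 0.736 with Lhx6), neither of which is paired with a name here. These ranks describe the libraries, and no test was made of them.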

How the data were processed

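Ribosome-associated mRNA of 91 pull-down libraries was measured by RNA-seq. The values are the authors' deposited raw counts, whose genes were filtered on log CPM per the name of the table. The submitters' processing notes name FastQC 0.11.7, HISAT2 (no version given), HTSeq 0.10.0 and the builds GRCm38 and GRCh38. CPM and fits were computed from these counts. R 4.3.3 with edgeR 4.0.16 (TMM, quasi-likelihood F-test) fitted a mean and 24 h cosine and sine terms for each cell type and sex, with Benjamini-Hochberg adjustment over 14355 genes and a threshold of 0.05. Letter tests added the letter to that model and left out letter E. Correlations and ratios used log2 CPM with a prior count of 2, and 100000 permutations (two-sided). Alternatives were DESeq2 1.42.0, RLE size factors, filterByExpr, the letter as a block, each letter left out, time as a factor, leaving out 3 libraries and, added after the data were seen, each letter alone. The models were tested on simulated counts.

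The members, gene lists and tests were chosen with earlier results of these data known. The genes named are the 7 members and, by rule, the gene most alike each of them, of which 2 identifiers are printed. The other marker lists were not scored, because 0 of the 14355 identifiers could be named from the 49997 reference entries; the members' names come with their identifiers. The letters pair the D2 libraries: of 243 same-letter pairs of D2 libraries from different groups, all 243 had deviations from group means that correlated above 0.1 (median 0.72). In D1 this held for 149 of 223 pairs, so D1 letters were not taken as pairs. No library was a copy of another of its group: the lowest mean chi-square per gene over 129 pairs was 4.24, where 1 would be sampling noise. Samples are pools of 2 mice, and p-values measure the spread between these samples.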

Additional observations from a re-analysis of the deposited data

Results flagged for a closer look

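Each gene's level was checked for a library far from the others of its cell type and time (Dixon's test at 95%, 6 to 8 libraries). Of 84 groups 9 held one, and chance flags about 1 in 20. Sst had 3 high D1 male libraries: 105.1 CPM at ZT2 B (next 64.2), 104.8 CPM at ZT6 B (next 57.7) and 90.35 CPM at ZT18 A (next 55.7). Sst was also low in the D2 female library ZT22 C, at 13.3 CPM against 19.65 in the next. Among the 3 libraries that stand apart, D1 male ZT18 D held the highest Slc5a7 (15.02 CPM, next 8.06) and the highest Lhx6 (22.86 CPM, next 13.4) of its time, and D1 male ZT10 B the lowest Lhx6 (2.917 CPM, or 24 counts, next 10.6). Chat was low in D1 male ZT6 D, at 1.156 CPM (18 counts, next 2.55). Pvalb was high in D2 female ZT10 C, at 1.804 CPM (18 counts, next 0.834).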

How the results depend on the processing

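Of 574 alternative values for 64 results, 543 kept direction and side of the threshold, 17 reversed, 10 gained and 4 lost the threshold. The ratios of 2 genes within a library were recomputed by letter, with labels permuted within letters and without the 3 libraries. The calls of Sst, Npy, Pvalb, Nos1 and Lhx6 between D1 and D2 held under the alternatives run, except Lhx6 in letter C alone (0.17, adjusted p = 0.207). filterByExpr changed none of the 7 genes' calls. The difference of Chat, -0.04, changed sign without the 3 libraries that stand apart (0.0365), without them and with the replicate block (0.0542), in letter A alone (0.2959) and with letters left out in turn (-0.1266 to 0.0075). Slc5a7 changed sign in letter C alone (-0.1471) and D alone (-0.1615, and -0.2507 without the library that stands apart); with the replicate block its difference was 0.17 (adjusted p = 0.056). For the sex difference in D1 the replicate block gave 1 call in place of 0, Sst (0.32, adjusted p = 0.0212), which was lost without the 3 libraries (adjusted p = 0.0815). The replicate block changed no other call between cell types, between sexes or over time. With letters left out in turn, sex differences that did not pass crossed 0 for Slc5a7 in D1 (-0.0482 to 0.0516) and D2 (-0.1271 to 0.0821), Lhx6 in D1 (-0.1185 to 0.0859) and D2 (-0.1005 to 0.1298) and Chat in D2 (-0.0801 to 0.1899). Genes called over letters in D1 ranged from 1 to 5 in the same way; DESeq2 added Chat (adjusted p = 0.0407). Correlations that passed rose from 10 to 22 on levels with no means taken out, where Sst with Nos1 in D2 turned from -0.037 to 0.479; this follows from the letter and group means that those levels keep. Low counts limit Pvalb in D2 most, at 1 to 22 per library. The DESeq2 count for sex in D1 is not given, since 6 of 7 adjusted p-values were not given.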
